A study of Mus musculus with 8 samples.

Results

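The neuropeptide genes Avp, Oxt, Pmch, Hcrt, Gal, Ghrh and Npvf, all made by neurons of the hypothalamus, were followed across 8 coronal brain sections of p16-3MR mice measured by Visium spatial transcriptomics. They are 7 of the 32285 genes in the count tables and were found by their symbols. They were chosen by their measured levels in these same sections, so those levels are described here and nothing is read from a test of them.

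The 4 groups held 2 sections each. PTX+GCV sections came from mice given paclitaxel (PTX, a chemotherapy drug, 5 mg/kg/day in 2 cycles of 5 days, 7 days apart) and then ganciclovir (GCV, 25 mg/kg/day). PTX+ABT263 sections were labelled as PTX with ABT263 (navitoclax, 1.5 mg/kg/day), PTX sections as PTX only, and Control sections as vehicle only. The methods of the study describe the PTX mice without a senolytic as vehicle controls. Each senolytic was given in 2 cycles of 5 days with 2 weeks between them. Brains were taken 6 months after PTX, at 9 to 10 months of age, and all mice were labelled male. All groups, Control included, carried 3MR, a transgene under the promoter of p16 that holds a red fluorescent protein and the viral thymidine kinase on which GCV acts. The tissue label is brain only, with no level of cutting, and no source used here ties the sections of a group to separate mice. Each section was 10 µm thick, and each spot of the array was 55 µm wide, so a spot can hold several cells. The labels give all 8 sections the same batch.

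These peptides are made by small groups of neurons that lie at set places along the hypothalamus. Vasopressin (Avp) and oxytocin (Oxt) neurons sit mainly in the paraventricular and supraoptic nuclei, towards the front, and Avp is also made in the suprachiasmatic nucleus. Melanin-concentrating hormone (Pmch) and orexin (Hcrt) neurons lie intermingled in the lateral hypothalamus further back and are known for their roles in feeding, sleep and wakefulness. Growth hormone-releasing hormone (Ghrh) is made in the arcuate nucleus, the RFamide peptides of Npvf in the dorsomedial hypothalamus, and galanin (Gal) in several hypothalamic nuclei. Their mRNA is held in very large amounts by few cells.

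In the mouse genome (GRCm38, GENCODE annotation), Oxt (chr2:130576173-130577054, plus strand) and Avp (chr2:130580620-130582554, minus strand) point towards each other, with 3565 bases between their 3′ ends. Pmch lies at chr10:88091072-88092375 on the plus strand and Hcrt at chr11:100761069-100762931 on the minus strand. Both Avp and Oxt have 3 exons in their single annotated transcript, as has Pmch. Parpbp, on the opposite strand, overlaps 944 bases of Pmch, and the strand setting of the counting is not given in the sources used here. The 250 bases before the RefSeq start of the 4 genes with the most counts are shown because these genes set the pattern below, each with the letters ATAAA, part of many TATA boxes, in capitals where they begin 40 to 10 bases before the start (RefSeq, GRCm38.p6, 5′ to 3′ on the gene's strand).
Avp: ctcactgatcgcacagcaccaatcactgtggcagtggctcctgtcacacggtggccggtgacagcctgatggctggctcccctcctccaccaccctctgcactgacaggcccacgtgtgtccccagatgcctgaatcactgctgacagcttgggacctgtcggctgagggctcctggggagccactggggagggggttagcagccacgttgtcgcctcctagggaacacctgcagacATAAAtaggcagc
Oxt: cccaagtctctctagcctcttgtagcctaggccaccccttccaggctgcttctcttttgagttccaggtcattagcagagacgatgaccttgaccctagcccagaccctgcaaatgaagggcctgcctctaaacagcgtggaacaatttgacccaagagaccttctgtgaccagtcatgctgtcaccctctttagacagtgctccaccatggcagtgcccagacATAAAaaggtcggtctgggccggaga
Pmch: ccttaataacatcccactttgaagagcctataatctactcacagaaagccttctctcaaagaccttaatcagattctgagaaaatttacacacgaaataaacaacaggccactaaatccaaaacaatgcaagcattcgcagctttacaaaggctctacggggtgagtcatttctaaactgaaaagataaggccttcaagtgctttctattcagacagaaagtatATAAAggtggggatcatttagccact
Hcrt: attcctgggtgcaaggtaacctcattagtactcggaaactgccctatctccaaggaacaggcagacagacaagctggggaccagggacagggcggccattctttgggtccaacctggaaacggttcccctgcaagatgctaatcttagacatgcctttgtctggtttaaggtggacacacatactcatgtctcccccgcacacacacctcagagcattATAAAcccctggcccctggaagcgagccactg
They span chr2:130582589-130582838 (Avp), chr2:130575919-130576168 (Oxt), chr10:88090822-88091071 (Pmch) and chr11:100762932-100763181 (Hcrt). The letters began 13 bases before the start in Avp, 26 in Oxt, 26 in Pmch and 32 in Hcrt. Of the genes not shown, Npvf held them 28 bases before the start and Gal had none between 40 and 10 bases. A Ghrh promoter held them 30 bases before its start and another had none there. Of 32851 RefSeq promoters of 300 bases, 5.1% held ATAAA in that window on the gene's strand and 2.96% on the opposite strand, and 40.01% held it anywhere on either strand. A match of these letters is a description of the sequence only.

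After filtering, 21328 of 22096 spots under tissue were kept, 2346 to 2839 per section, with 19870666 to 42886400 UMIs (molecules counted once by their barcode) per section. The median spot held 7583 to 15715.5 UMIs. The 2 sections labelled PTX+ABT263 went against their label of sex. Xist, which coats the silenced X chromosome of females, had 754 and 695 UMIs in them and at most 1 in any other section, and Ddx3y, a gene of the Y chromosome, had 17 and 0 UMIs in them and 711 to 1350 in the others. The levels of the sections labelled PTX+ABT263 are therefore given under that label, while sums and ranges over 8 sections, the clustering and the fit across genes include them. The level of a gene is its count per 1000000 UMIs of the section's kept spots (CPM), which does not tell fewer cells of a type from less RNA per cell.

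Avp and Oxt, the peptides of the magnocellular neurons, were high in both PTX sections and in 1 Control section, and low in the other 5 sections. Avp had 276 and 293 UMIs in PTX+GCV, 108 and 173 in PTX+ABT263, 13561 and 9374 in PTX, and 2785 and 78 in Control. Its level was 10.5 and 7.60 CPM in PTX+GCV, 2.82 and 4.79 in PTX+ABT263, 316 and 246 in PTX, and 140 and 2.35 in Control. The 2 Control sections thus differed by 59.6 times in Avp, while both PTX sections lay above both of them. Oxt had 321 and 72 UMIs in PTX+GCV (12.2 and 1.87 CPM), 269 and 290 in PTX+ABT263 (7.02 and 8.03), 2423 and 8416 in PTX (56.5 and 221), and 2665 and 23 in Control (134 and 0.69). The Control sections differed by 193 times in Oxt and enclosed PTX section 1. On the log2 scale the mean level in PTX over that in Control was 1.98 for Avp and 1.04 for Oxt. The value for Avp became 6.90 without Control section 1 and 1.0 without Control section 2. That for Oxt became 7.64 without Control section 1, 0.05 without Control section 2, 1.71 without PTX section 1 and −0.25 without PTX section 2.

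Pmch and Hcrt, the peptides of the lateral hypothalamus, ran the other way in the PTX sections. Pmch had 19550 and 27967 UMIs in PTX+GCV, 50508 and 17657 in PTX+ABT263, 2204 and 23 in PTX, and 16024 and 1826 in Control. Its level was 744 and 725 CPM in PTX+GCV, 1319 and 489 in PTX+ABT263, 51.4 and 0.60 in PTX, and 806 and 55.1 in Control, a range of 2185 times over the 8 sections. Both PTX sections lay below all 6 other sections in CPM, PTX section 1 only just below Control section 2. In UMIs per 1000 spots PTX section 1 stood above Control section 2 (862 against 710). Hcrt had 7468 and 12781 UMIs in PTX+GCV (284 and 331 CPM), 5540 and 7752 in PTX+ABT263 (145 and 215), 575 and 69 in PTX (13.4 and 1.81), and 10376 and 21 in Control (522 and 0.63). Control section 2 had the lowest Hcrt level of all sections and Control section 1 the highest, so the PTX sections lay between them. The log2 ratio of mean levels, PTX over Control, was −4.05 for Pmch and −5.10 for Hcrt. For Pmch it became −1.08 without Control section 1, −4.96 without Control section 2, −9.48 without PTX section 1 and −3.07 without PTX section 2. For Hcrt it became 3.59 without Control section 1, −6.10 without Control section 2, −7.17 without PTX section 1 and −4.29 without PTX section 2.

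The other 3 genes had fewer counts. Gal had 597 and 706 UMIs in PTX+GCV, 636 and 871 in PTX+ABT263, 312 and 230 in PTX, and 398 and 105 in Control. Ghrh had 93 and 163 UMIs in PTX+GCV, 200 and 183 in PTX+ABT263, 63 and 46 in PTX, and 100 and 17 in Control. For both genes the PTX sections lay between the 2 Control sections, and the log2 ratio of PTX over Control, −0.80 for Gal and −1.05 for Ghrh, became 1.07 (Gal) and 1.38 (Ghrh) without Control section 1. Npvf had 106 and 111 UMIs in PTX+GCV, 57 and 8 in PTX+ABT263, 1 and 1 in PTX, and 16 and 54 in Control. Its highest single spot held 68 and 39 of these UMIs in PTX+GCV, 20 and 4 in PTX+ABT263, 1 and 1 in PTX, and 7 and 45 in Control.

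**Figure D1:**
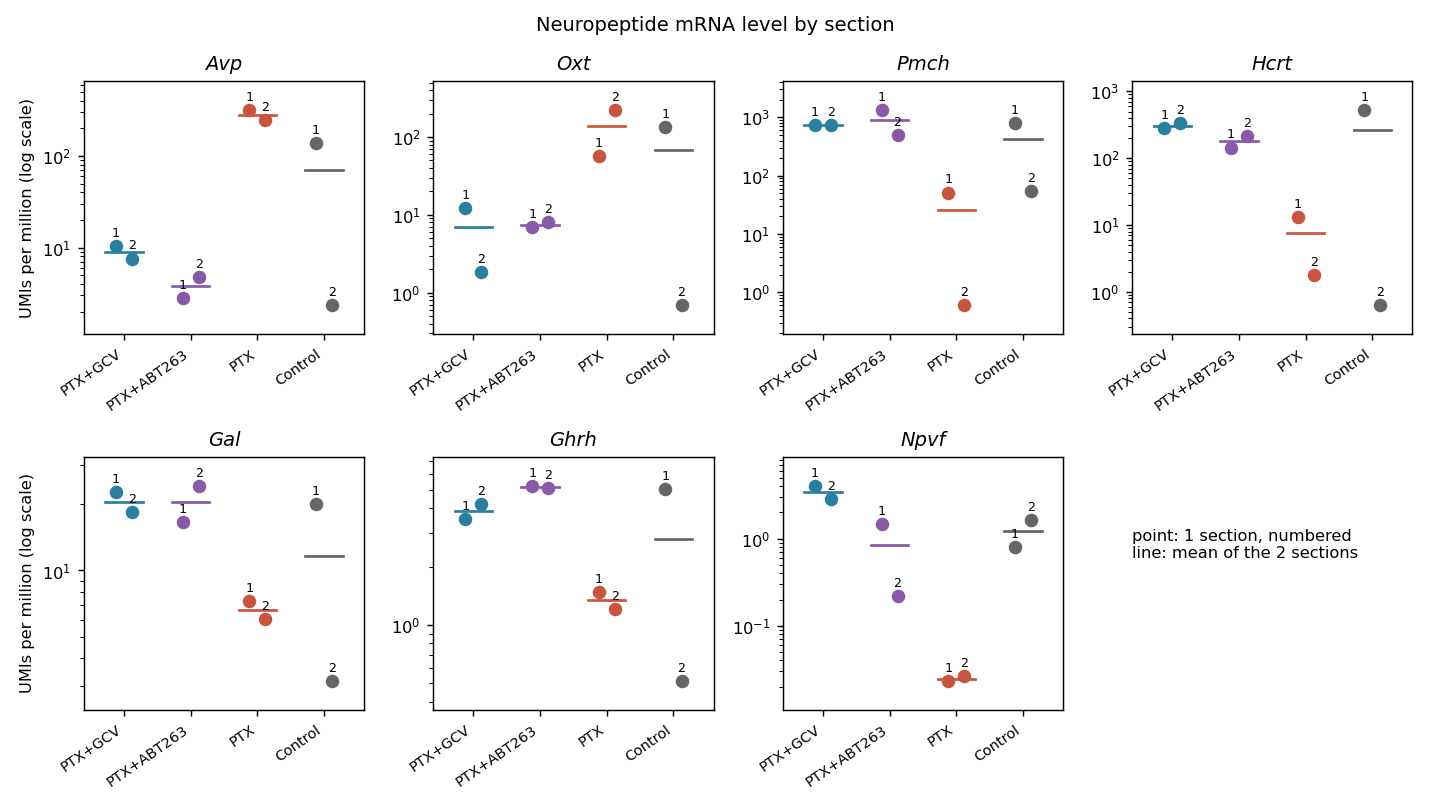
Level of each of the 7 genes in the 8 sections, in CPM on log axes, with a point for each section (numbered) and a line at the mean of the 2 sections of a group. In Avp and Oxt the PTX sections and Control section 1 stand above the rest, and in Pmch and Hcrt the PTX sections and Control section 2 stand below.

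The ratio of Pmch plus Hcrt UMIs to Avp plus Oxt UMIs puts the sections in order. It was 45.3 and 112 in PTX+GCV, 149 and 54.9 in PTX+ABT263, 0.174 and 0.00517 in PTX, and 4.84 and 18.3 in Control. Both PTX sections lay below all others, both Control sections came next, and the PTX+GCV and PTX+ABT263 sections lay above them and overlapped each other. It compares sections only, since capture may differ between genes. Control section 2, with 101 Avp and Oxt UMIs and 1847 of Pmch and Hcrt, was low in both pairs: the 7 genes together made up 0.00641% of its UMIs, against 0.0446 to 0.163% in the other 7 sections.

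All 7 genes passed the filter on low counts in the fit across genes. Between PTX+GCV and PTX, all 7 had groups that did not overlap, 5 higher (Pmch, Hcrt, Gal, Ghrh, Npvf) and 2 lower (Avp, Oxt). The same held between PTX+ABT263 and PTX, and both comparisons use the same PTX sections. Between PTX and Control, Avp was higher and Pmch and Npvf lower without overlap, and the other 4 overlapped. For Pmch this held in scaled levels but not in UMIs per spot. Over all 16671 genes tested, sections of the groups did not overlap for 20.6% (higher) and 20.2% (lower) of genes between PTX+GCV and PTX, 22.3% and 22.3% between PTX+ABT263 and PTX, and 21.8% and 20.5% between PTX and Control. The genes were chosen for this pattern, so nothing is read from their count. The mean levels in PTX+GCV over PTX were −4.96 (Avp), −4.30 (Oxt), 4.82 (Pmch) and 5.34 (Hcrt) on the log2 scale. In PTX+ABT263 over PTX they were −6.21 (Avp), −4.20 (Oxt), 5.12 (Pmch) and 4.56 (Hcrt). Single sections moved these sizes but turned no sign. For PTX+GCV over PTX, Pmch was 10.2 without PTX section 1 and 3.84 without PTX section 2, Hcrt was 7.41 without PTX section 1 and 4.52 without PTX section 2, and Oxt was −4.97 without PTX section 1, −3.00 without PTX section 2, −6.21 without PTX+GCV section 1 and −3.50 without PTX+GCV section 2. For PTX+ABT263 over PTX, Pmch was 10.5 without PTX section 1, 4.14 without PTX section 2 and 4.23 without PTX+ABT263 section 1, Hcrt was 6.63 without PTX section 1 and 3.74 without PTX section 2, and Oxt was −4.87 without PTX section 1 and −2.91 without PTX section 2.

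The UMIs of these genes lay in compact patches on the array. A spot was called high for a gene at 10 or more of its UMIs, and 3 or more adjoining high spots of a pair of genes made a patch. In all sections together 111 spots were high for Avp, 79 for Oxt, 859 for Pmch, 411 for Hcrt, 69 for Gal, 12 for Ghrh and 7 for Npvf. The highest single spot held 6295 Avp UMIs in PTX section 1, and the 10 highest spots held 86.2% of all Avp UMIs there. Away from the patches the genes were not at 0. More than 1 mm from any high spot of the gene, 317 Avp UMIs per 1000 spots were left in PTX section 1 and 247 in PTX section 2, and 876 Pmch UMIs per 1000 spots in PTX+ABT263 section 1. Shares of spots with at least 1 UMI, such as 61.8% for Pmch in that section, therefore include this background.

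**Figure D2:**
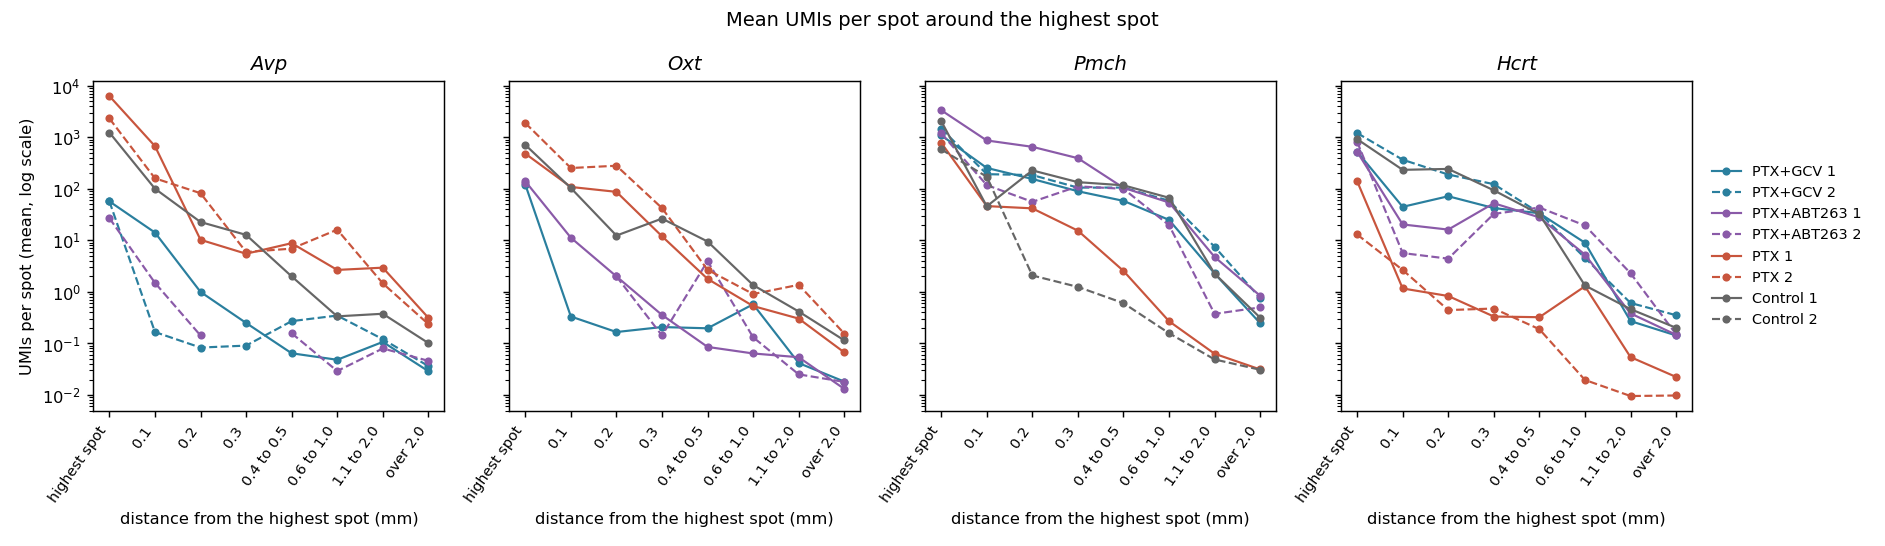
Mean UMIs per spot of Avp, Oxt, Pmch and Hcrt (log scale) by distance in mm from the gene's highest spot, with a line for each section that has a high spot (solid, section 1 and dashed, section 2 of a group). Avp in PTX section 1 had 6295 UMIs in the highest spot and 672 per spot at 0.1 mm, while Pmch in PTX+ABT263 section 1 still had 105 per spot at 0.4 to 0.5 mm. Means of 0 are not drawn.

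In PTX section 1 the Avp and Oxt patches were of different make-up. A patch of 17 spots held 1348 Avp and 1958 Oxt UMIs. Another of 15 spots, 1.57 mm away, held 10434 Avp and 65 Oxt UMIs, so that 99.4% of the pair's UMIs there were Avp. The other patches, of 6 and 3 spots, held 310 and 39 Avp UMIs with 4 and 2 of Oxt. In PTX section 2 the largest patch, of 24 spots, held 570 Avp and 7203 Oxt UMIs. Patches of 11 and 10 spots, 1.45 and 1.97 mm away, held 3630 and 3493 Avp UMIs with 90 and 24 Oxt UMIs, and 3 patches of 3 spots made up the rest. Control section 1 had a single patch of 23 spots with 2292 Avp and 2035 Oxt UMIs. PTX+GCV section 1 had one of 5 spots with 126 and 99. PTX+GCV section 2, Control section 2 and both sections labelled PTX+ABT263 had none.

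Sim1 and Otp, transcription factors of the developing paraventricular and supraoptic neurons, were counted in the larger patches. The patch of 17 spots in PTX section 1 held 10 Sim1 and 92 Otp UMIs and its patch of 15 spots held 15 and 61. The patch of 24 spots in PTX section 2 held 17 Sim1 and 119 Otp UMIs, and that of Control section 1 held 4 and 36. Vip, a peptide of the suprachiasmatic nucleus and of cortical interneurons, had 0 or 1 UMIs in all of these patches. It had 15 UMIs in the patch of 10 spots in PTX section 2, most of whose spots lay outside the hypothalamus region defined below.

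Pmch and Hcrt shared 1 large patch in both PTX+GCV sections, both sections labelled PTX+ABT263 and Control section 1. It covered 207 and 209 spots in PTX+GCV (18217 and 25348 Pmch, 6927 and 11661 Hcrt UMIs), 201 and 114 spots in PTX+ABT263 (47464 and 16153 Pmch, 5009 and 7232 Hcrt), and 101 spots in Control section 1 (15000 Pmch and 9705 Hcrt). Between 69.6% and 98.9% of the high Hcrt spots of these 5 sections were also high for Pmch. In PTX section 1 the 2 genes were apart. A patch of 25 spots held 1935 Pmch and 19 Hcrt UMIs, one of 9 spots, 0.666 mm away, held 1 Pmch and 272 Hcrt UMIs, and no spot was high for both. The Pmch patch there lay 0.202 mm from the mixed Avp and Oxt patch (between centres). PTX section 2 had a single high spot of the pair, with 13 Hcrt UMIs. Control section 2 had a patch of 5 spots with 1598 Pmch and 0 Hcrt UMIs. PTX+ABT263 section 2 had a second patch, of 14 spots and 3.54 mm from the first, with 395 Pmch and 40 Hcrt UMIs, outside the hypothalamus region.

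**Figure D3:**
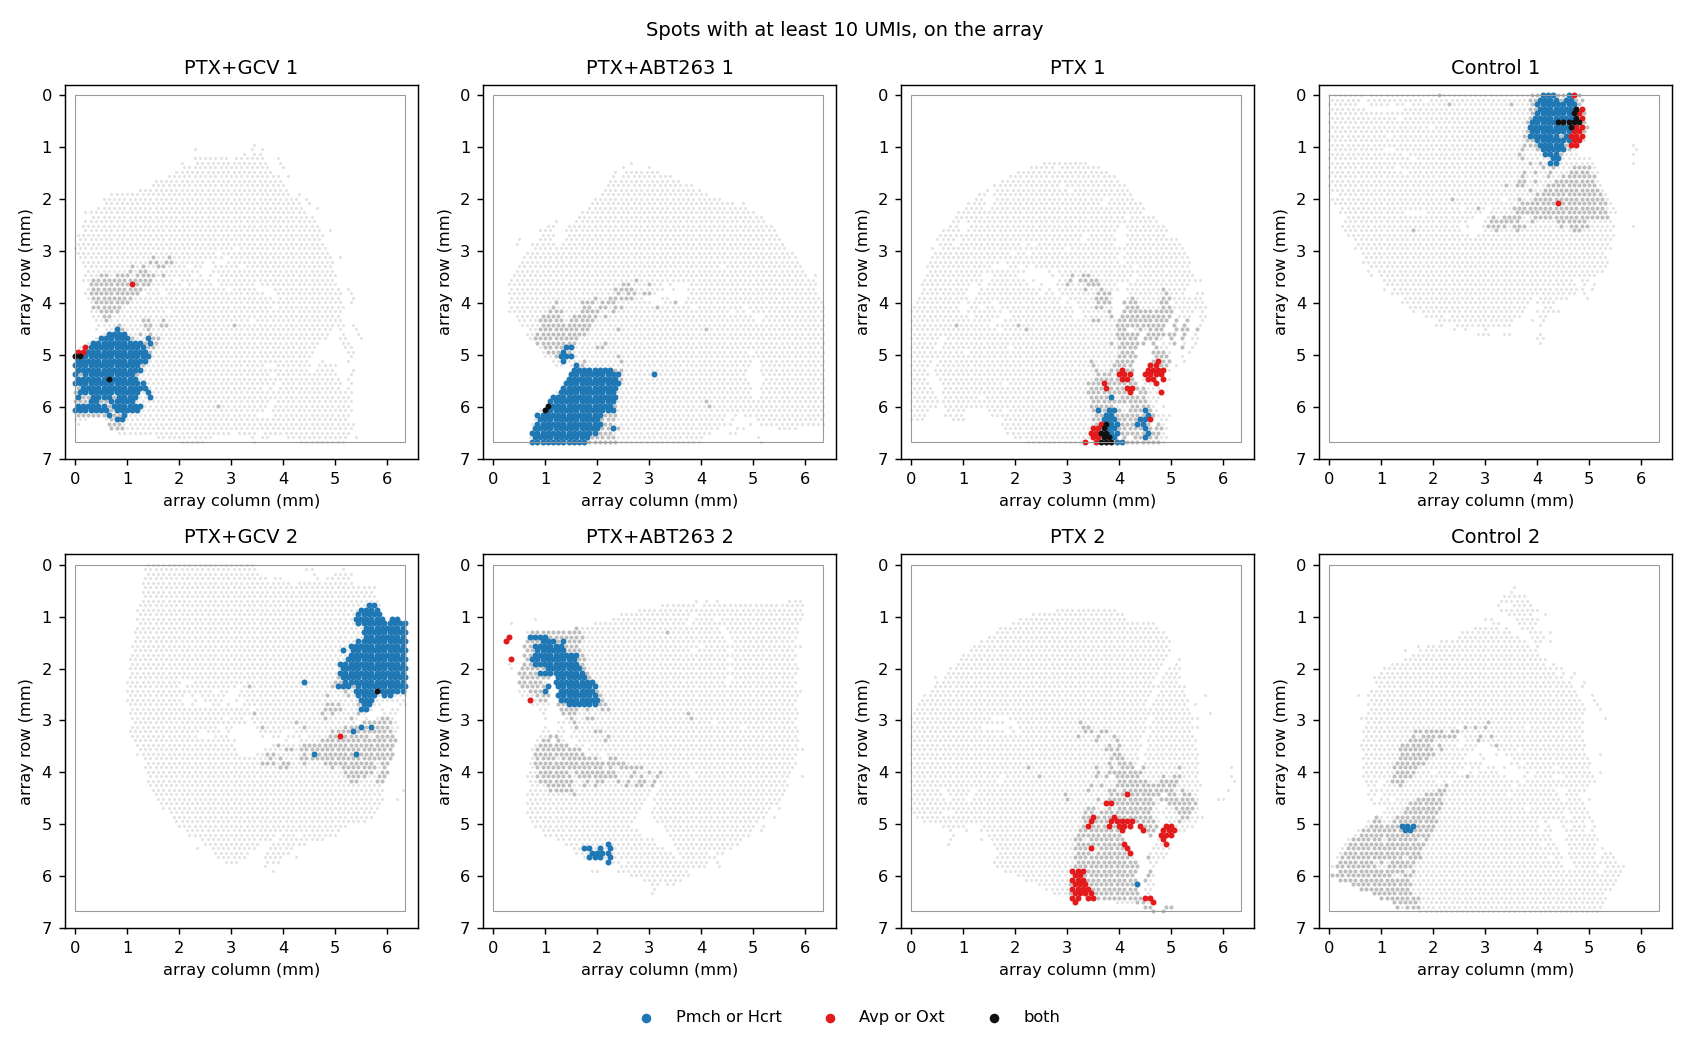
Position on the array (mm) of spots with at least 10 UMIs of Pmch or Hcrt (blue), of Avp or Oxt (red) or of both pairs (black) in the 8 sections. Pale points are other kept spots, darker points those of the hypothalamus region, and the rectangle is the border of the array. Sections were laid on the arrays in different orientations. Blue patches cover 101 to 209 spots in the PTX+GCV and PTX+ABT263 sections and in Control section 1, and red patches dominate in the PTX sections.

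**Figure D4:**
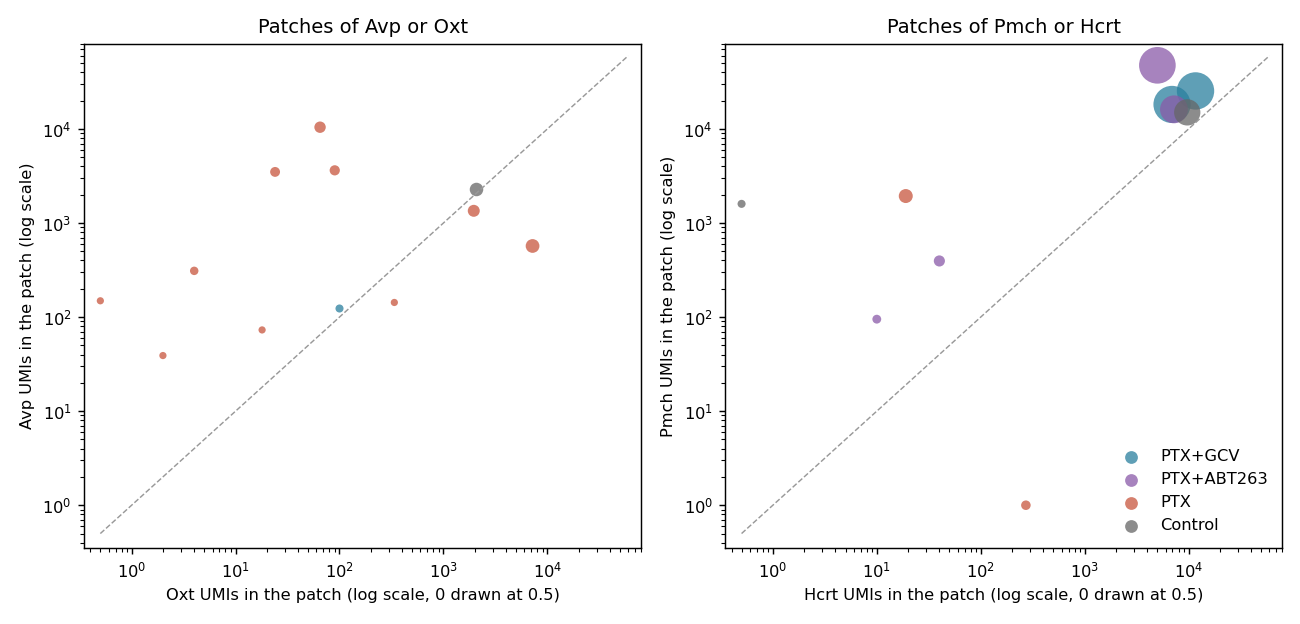
UMIs of the 2 genes of a pair in each patch (log axes, 0 drawn at 0.5, area of a point by number of spots, colour by group), for Avp against Oxt on the left and Pmch against Hcrt on the right. The dashed line marks equal numbers. PTX patches of Avp and Oxt lie on both sides of it, and the 5 large Pmch and Hcrt patches lie together above it.

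Patches reached the border of the array in several sections. Spots of the hypothalamus region on the outermost rows or columns numbered 13 and 16 in PTX+GCV, 16 and 0 in PTX+ABT263, 13 and 2 in PTX, and 11 and 1 in Control. The Pmch and Hcrt patch touched the border with 10 and 16 spots in PTX+GCV, with 11 in PTX+ABT263 section 1 and with 4 in Control section 1. In PTX section 1 the mixed Avp and Oxt patch touched it with 4 spots and the Pmch patch of 25 spots with 5. The Avp and Oxt patch of 5 spots in PTX+GCV section 1 touched it with 2. The part of the border in the levels was not tested.

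The hypothalamus region was defined without the 7 genes, by clustering spots on all other variable genes and keeping clusters led by hypothalamic markers. It comprised 2 clusters, named by this marker rule alone, and whether all their spots are hypothalamus was not tested. A cluster of 2036 spots had among its leading genes Otp, Dlk1, Lhx1os, Irs4, Fezf1, Sytl4, Cartpt, Trh and Gpx3, and a cluster of 883 spots had Ucn3, Ccdc42, Lamb3, Baiap3, Aldh3b2, Mab21l1, Esyt3 and Nos1. The cluster led by Otp held 73.4% of all Avp, 80.2% of Oxt, 92.6% of Pmch, 92.7% of Hcrt, 69.9% of Gal, 80.5% of Ghrh and 94.4% of Npvf UMIs. Of Avp UMIs 15.9% and of Oxt UMIs 2.85% lay in the largest cluster, of 3596 spots and led by Trim54, Myoc and Ccn3. The patch of 10 spots in PTX section 2, with 3493 Avp UMIs, had 7 of its spots there. The choroid plexus cluster led by Ttr held 5.58% of Oxt UMIs. All these shares are of UMIs summed over sections, and the PTX sections gave most Avp UMIs. By section, 92.9 and 52.1% of Avp UMIs lay in the region in PTX, and 88.4 and 3.85% in Control. In PTX+GCV it was 44.9 and 68.6%, and in PTX+ABT263 25.0 and 24.3%.

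The region held 12.3 to 14.9% of the kept spots of every section. It made up 12.3 and 13.6% of kept spots in PTX+GCV, 12.4 and 14.0% in PTX+ABT263, 13.8 and 14.9% in PTX, and 14.7 and 14.1% in Control. The difference was −0.0732 percentage points between PTX and Control (exact two-sided permutation p = 1), −1.41 between PTX+GCV and PTX (exact p = 0.333) and −1.15 between PTX+ABT263 and PTX (exact p = 0.667), where 0.333 is the smallest p that 2 against 2 sections allow. The mix of the clusters in the region varied. The cluster led by Ucn3 made up 25.6 and 37.6% of its spots in PTX+GCV, 27.4 and 32.8% in PTX+ABT263, 34.4 and 29.7% in PTX, and 38.3 and 16.0% in Control. Equal shares of spots therefore need not be the same parts of the brain, nor all of the hypothalamus. Within the region the levels kept their wide range. Avp stood at 33.5 and 33.3 CPM in PTX+GCV, 4.89 and 7.74 in PTX+ABT263, 1850 and 856 in PTX, and 546 and 0.619 in Control. Pmch stood at 4940 and 4211 CPM in PTX+GCV, 8601 and 3048 in PTX+ABT263, 310 and 2.45 in PTX, and 3413 and 362 in Control. Gal stood at 133 and 97.5 CPM in PTX+GCV, 97.1 and 147 in PTX+ABT263, 23.2 and 21.9 in PTX, and 79.2 and 16.3 in Control. A section with as many spots of the region as another could hold far fewer UMIs of these genes. Over the sections, levels in the region differed by up to 2987 times for Avp, 3506 times for Pmch and 1528 times for Hcrt, and by 9.03 times for Gal.

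Other genes with set places along the hypothalamus were compared in whole sections. In the edgeR quasi-likelihood test, across all 16671 genes, 0.138% were called at an adjusted p under 0.05 between PTX+ABT263 and PTX (14 higher, 0.084%, and 9 lower, 0.054%), 0.024% between PTX+GCV and PTX (2 higher, 0.012%, and 2 lower, 0.012%) and 0.126% between PTX and Control (8 higher, 0.048%, and 13 lower, 0.078%). Those between PTX+ABT263 and PTX include all 5 genes used to check sex (Xist higher, and Ddx3y, Eif2s3y, Kdm5d and Uty lower) and Uba1y, Eif2s3x and Ddx3x, also genes of the sex chromosomes. At an unadjusted p under 0.05 there were 1969, 1777 and 2246. The 7 genes stayed in these counts. Npvf is among the 2 higher genes between PTX+GCV and PTX, and since it was chosen by its level, nothing is read from that call. The p-values measure the spread between these sections, which may be technical. PTX+ABT263 and PTX sections differ in the genes used to check sex as well as in label. No call between these groups, here or below, can be told apart from a difference of sex. Of 18 hypothalamic transcription factors, 17 were tested. Sim1 had 17 and 10 UMIs in PTX+ABT263 and 78 and 69 in PTX, a log2 fold change of −2.20 ± 0.32 (SE, edgeR adjusted p = 0.0214). Nkx2-4, a factor of the hypothalamus, had 54 and 48 UMIs in PTX+ABT263 and 2 and 2 in PTX (4.81 ± 0.77, edgeR adjusted p = 0.0360). None of the 17 passed between PTX+GCV and PTX (7 at an unadjusted p under 0.05, 2 by DESeq2) or between PTX and Control (8 and 2). Both calls were lost without either PTX section and without either section labelled PTX+ABT263, with adjusted p between 0.0663 and 0.291. Sim1 was also measured at 8 and 20 UMIs in PTX+GCV and at 9 and 23 in Control, so both PTX sections stood above the 6 other sections. Of the Sim1 UMIs of the PTX sections 64.1 and 43.5% lay in the hypothalamus region, where its level was 1.62 and 3.14 CPM in PTX+GCV, 2.17 and 1.66 in PTX+ABT263, 7.34 and 5.26 in PTX, and 2.00 and 4.75 in Control. Otp too was highest in the PTX sections, with 132 and 133 UMIs in PTX+GCV, 184 and 136 in PTX+ABT263, 415 and 344 in PTX and 118 and 36 in Control.

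Control section 2 differed in another set of genes. Foxb1 and Barhl1, factors of the mammillary area and its surroundings, had 84 and 45 UMIs in it, against 17 to 30 and 0 to 8 in the others. Hdc, which makes histamine in the tuberomammillary nucleus, had 233 UMIs there, against 23 to 155 in the other sections. Nr5a1, which marks the ventromedial nucleus, had 0 UMIs in it and 5 to 79 in the others, and Fezf1 had 3 against 52 to 218. In the edgeR fit between PTX and Control, neither Foxb1 (log2 fold change −1.75 ± 0.43, SE, edgeR adjusted p = 0.140) nor Hdc (−2.20 ± 0.64, edgeR adjusted p = 0.179) passed. Nr5a1 also split the other groups, with 52 and 11 UMIs in PTX+GCV, 6 and 79 in PTX+ABT263, 5 and 9 in PTX and 28 in Control section 1.

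**Figure D5:**
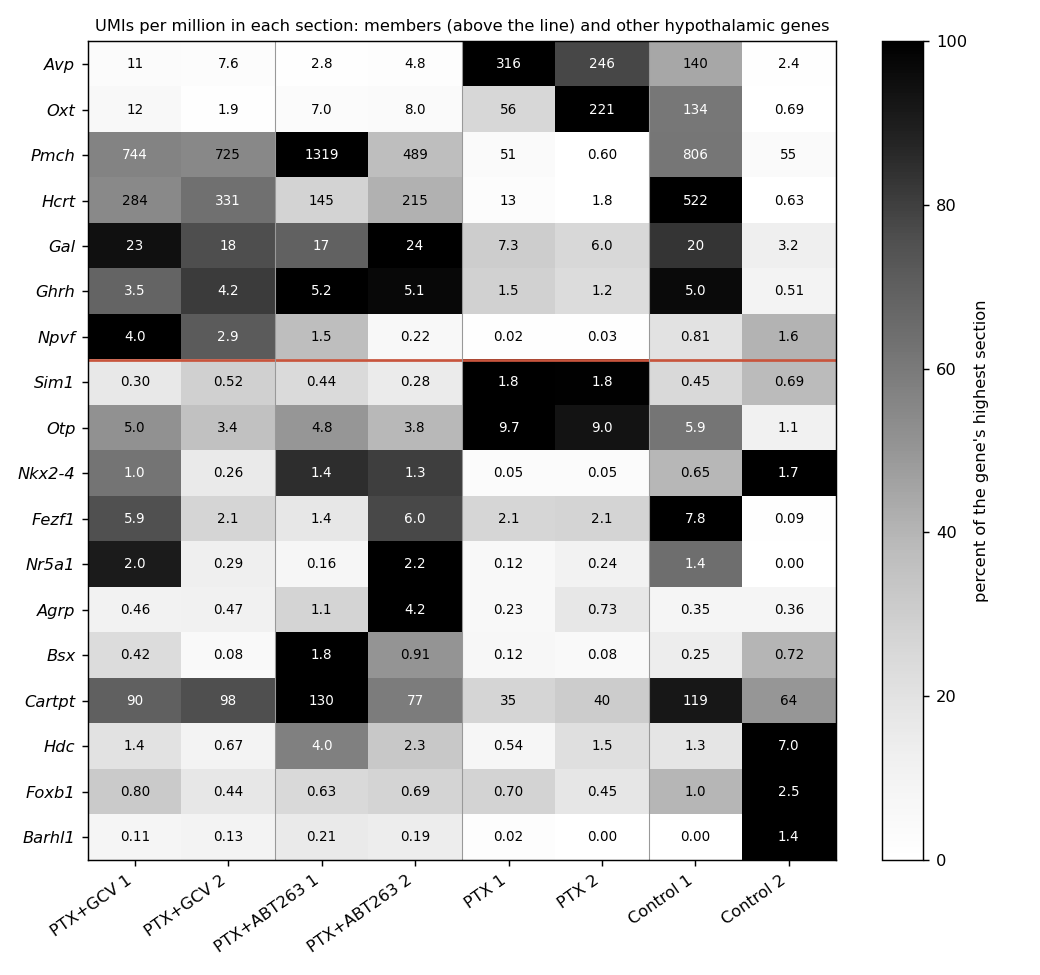
Level in CPM (printed in each cell) of the 7 genes, above the line, and of other hypothalamic genes in the 8 sections, shaded by the percentage of the gene's highest section. Avp, Sim1 and Otp are darkest in PTX sections, and Hdc, Foxb1 and Barhl1 in Control section 2.

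Of 24 other hypothalamic peptides, 22 were tested. Cartpt, whose peptide is made with melanin-concentrating hormone in many of its neurons, was higher in PTX+ABT263 than in PTX (log2 fold change 1.58 ± 0.24, SE, edgeR adjusted p = 0.0251), and its call was lost without PTX+ABT263 section 1 and without either PTX section (adjusted p 0.0913 to 0.269). Cartpt was at 89.8 and 98.3 CPM in PTX+GCV, 130 and 77.0 in PTX+ABT263, 34.7 and 39.6 in PTX, and 119 and 64.4 in Control. Both PTX sections thus lay below all other sections. The large Pmch patches held 1422 and 2309 Cartpt UMIs in PTX+GCV, 3620 and 1357 in PTX+ABT263 and 1714 in Control section 1. Tac2, of the tachykinin family, was higher in PTX than in Control (0.86 ± 0.14, SE, edgeR adjusted p = 0.0448). None of the 22 passed between PTX+GCV and PTX (8 at an unadjusted p under 0.05, 0 by DESeq2). The median log2 fold change of these peptides was 0.04 in PTX+ABT263 over PTX, −0.11 in PTX+GCV over PTX and 0.05 in PTX over Control, beside 0.00427, −0.000324 and 0.00536 over all genes.

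Genes of neighbouring structures were also called. Tac2 is also a gene of the habenula, and in a list of 8 habenula genes it and Chrna3, a nicotinic receptor subunit (1.67 ± 0.23, SE, edgeR adjusted p = 0.0247), were higher in PTX than in Control. Neither passed without PTX section 1, PTX section 2 or Control section 2 (adjusted p 0.0771 to 0.196), nor did Tac2 without either section labelled PTX+ABT263 (0.0535 and 0.0540). The other 6 habenula genes did not pass, and the median of the list was 1.17. In this comparison 7 of the 8 had an unadjusted p under 0.05 and 4 passed by DESeq2. Without overlap 7 of the 8 were higher, beside 21.8% of all genes. Aldh1a1, of midbrain dopamine neurons, was higher in PTX+ABT263 than in PTX (0.78 ± 0.10, SE, edgeR adjusted p = 0.00888), but not without PTX+ABT263 section 2 or PTX section 1 (0.0686 and 0.102). It was the only gene called of 5 tested in a list of 6 midbrain dopamine genes, and Slc18a2, of the same neurons, had a value of −0.14 ± 0.31 (SE, edgeR adjusted p = 0.900). None of 8 septal and striatal genes passed in any comparison (5 to 6 at an unadjusted p under 0.05, 0 by DESeq2). Their median log2 fold change was 0.55 in PTX over Control, −0.59 in PTX+GCV over PTX and −0.62 in PTX+ABT263 over PTX. Without overlap 6 were higher in PTX than in Control (21.8% of all genes). Likewise 5 were lower in PTX+GCV than in PTX (20.2%), and 6 lower and 1 higher in PTX+ABT263 (22.3% each). The part of these structures in the levels of the peptides was not tested.

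Receptors and processing enzymes of the peptides were tested as lists. Of 13 receptors of the 7 peptides, 6 had enough counts to test and none passed in any comparison (0 to 1 at an unadjusted p under 0.05, 0 by DESeq2). Mchr1, the receptor of melanin-concentrating hormone, was at 14.3 and 18.4 CPM (with TMM scaling, as for the genes named next) in PTX+GCV, 12.6 and 13.8 in PTX+ABT263, 16.1 and 17.5 in PTX and 13.2 and 14.4 in Control. Hcrtr1, an orexin receptor, was between 2.25 and 3.58 CPM in all sections. All 12 genes of peptide processing and secretory granules were tested and none passed (2 to 3 at an unadjusted p under 0.05, 0 to 1 by DESeq2). Pcsk1, which cuts prohormones, was between 19.3 and 24.9 CPM in all 8 sections and Pcsk2 between 246 and 279.

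Genes with patterns like those of the 7 were sought within sections. Pearson correlations over kept spots, on the log scale, were averaged over sections with at least 20 UMIs of the gene, among 14643 genes, and are a description since spots share a section and its depth. Avp was most like Oxt (mean r 0.239 over 8 sections), Trh (0.192) and Otp (0.180). Oxt was most like Otp (0.272), Avp (0.239) and Dlk1 (0.224). Pmch was most like Hcrt (0.426), Gpx3 (0.403) and Cartpt (0.402), and Hcrt like Pmch (0.426), Dlk1 (0.381) and Gpx3 (0.342). Between sections the Pmch and Hcrt value ranged from 0.00117 to 0.710, and that of Avp and Oxt from −0.0118 to 0.501. The value for Avp and Otp ranged from −0.0137 to 0.463 and that for Oxt and Otp from −0.00778 to 0.465. Gal was most like Dlk1 (0.354), Gpx3 (0.324) and Baiap3 (0.323). Ghrh, over 7 sections, was most like Cartpt (0.247), AW551984 (0.235) and Th (0.229), which makes dopamine in arcuate neurons, and Npvf, over 4 sections, was most like Gal (0.214), Calcr (0.179) and Hcrt (0.157). Between the pairs the mean values were 0.0753 for Avp and Pmch, 0.0613 for Avp and Hcrt, 0.163 for Oxt and Pmch and 0.105 for Oxt and Hcrt.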

How the data were processed

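Visium libraries of 8 sections were analysed. The authors made the deposited counts with Space Ranger 1.2.1 on mm10, and the values are whole, unnormalised UMI counts per gene and spot. The notes of the submitters also name Seurat 4.0, which is not in these counts. For the levels, 768 spots below 200 genes or above 30% mitochondrial UMIs were dropped. Levels are UMIs in kept spots scaled to 1000000 (CPM), and a count of 0 would allow up to 0.0700 to 0.151 CPM (3 counts), by section. This floor covers counting error only. Standard errors of fold changes come from the edgeR fit over sections.

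Spots were clustered without the 7 genes (Seurat 5.3.0, SCTransform, 2000 features, integration over sections, 20 principal components, resolution 0.15, alternative 0.3). A cluster was assigned to the hypothalamus where its leading 50 genes held at least 3 hypothalamic markers, and more of them than of any other class, with at least 1 in the leading 10. UMIs were summed per section and tested with edgeR 4.0.16 (TMM, filterByExpr, quasi-likelihood F-test, all 8 sections, Benjamini-Hochberg at 0.05), with DESeq2 1.42.0 as an alternative (R 4.3.3). Shares of spots had an exact permutation test (scipy 1.17.1, Python 3.11.15). Tested on simulated data for PTX against Control (16515 genes), edgeR recovered 67.2% of genes changed 1.5 times, 74.6% at 2 times and 90.9% at 4 times, and called 4 unchanged ones. Apart from the planted changes, the simulated sections shared a single mean per gene, with the dispersion of the fit. These shares need not hold for genes that differ between sections as widely as the 7 do. The genes named are the 7, those used to check sex, up to 4 per list (first those that passed), leading genes of clusters and the 3 most alike. The genes, lists and rules were chosen with earlier results of these data known. Some hypothalamic genes named for Control section 2 and Nr5a1, Fezf1 and Hdc were chosen after their values were seen. Alternatives were scaling to totals, the fit with low counts kept, all spots under tissue, 2 groups in the fit, no PTX+ABT263 sections, a replicate block, each section left out, UMIs per spot, thinned spots and other limits for a high spot. Images were not used here. Some genes are not reported here.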

Additional observations from a re-analysis of the deposited data

How the results depend on the processing

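The lists were fitted across all genes, and the number of genes called there depended on the processing. DESeq2 called 152 genes for PTX against Control, 82 for PTX+GCV against PTX and 116 for PTX+ABT263 against PTX. With total counts in place of TMM these were 54, 36 and 118, without the filter for low counts 874, 547 and 712, and with 2 groups alone in the fit 66, 56 and 89. DESeq2 split PTX against Control into 27 higher and 125 lower genes (8 and 13 by edgeR), and total counts split PTX+ABT263 against PTX into 26 higher and 92 lower (14 and 9). Without the sections labelled PTX+ABT263, 23 genes were called for PTX against Control and 22 for PTX+GCV against PTX. Leaving out each section in turn gave 0 to 78, 0 to 50 and 12 to 65, taking the spread of a single section to be that of the rest. All spots under tissue gave 23, 4 and 24. The cause of these shifts was not tested.

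Section numbers did not pair the sections (correlations of same-numbered sections −0.115 to 0.0662). With the replicate block 2, 2 and 22 genes were called. Adjusted p was then 0.0563 for Chrna3, 0.119 for Tac2, 0.0503 for Sim1, 0.0802 for Nkx2-4, 0.0321 for Cartpt and 0.0283 for Aldh1a1.

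Of 21 log2 ratios of the 7 genes, TMM scaling or all spots moved none past the spread between sections, and UMIs per kept spot moved 5. Of 84 with a section left out 67 stayed within it. For PTX over Control that spread was 2.95 (Avp), 3.92 (Oxt), 3.75 (Pmch) and 5.05 (Hcrt) on the log2 scale. Staying within so wide a spread says little. Oxt was counted as staying although it turned from 1.04 to −0.25 without PTX section 2. Hcrt, Gal and Ghrh turned sign without Control section 1. Thinning to 3000 UMIs a spot moved 8 of 21 shares of spots. Gal turned sign there, at −0.17 for PTX over Control. With at least 5 UMIs, a high spot was found 225 times for Avp, 134 for Oxt, 1238 for Pmch, 624 for Hcrt, 174 for Gal, 30 for Ghrh and 12 for Npvf. With at least 20 it was 70, 62, 629, 238, 21, 3 and 5. Ghrh and Npvf, with 865 and 354 UMIs over all sections, rest on few counts.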
